A study of Mus musculus with 12 samples.

Results

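Chemokine receptors are the cell-surface receptors by which a T cell reads the gradients of chemokines that guide it between blood, lymphoid organs and inflamed or resting tissue. The 9 receptors described here are Ccr1, Ccr2, Cxcr3 and Cx3cr1, which are grouped as inflammatory receptors, and Ccr4, Ccr8, Cxcr4, Cxcr5 and Cxcr6, which are grouped as tissue-homing receptors. They were taken by symbol, from a list chosen with earlier results of these data known, and are 9 of the 55450 genes in each table. The 9 genes were among the 13636 that passed a filter on low counts, but 3 of them passed only through the groups in which they were highest: Cx3cr1 through genipin, Ccr8 through genipin and NAC, and Cxcr5 through NAC and genipin+NAC.

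RNA was sequenced from 12 libraries of CD8 T cells taken from pmel-1 mice, which carry a transgenic receptor for a gp100 melanoma peptide. Every group carried the transgene and the wild-type Ucp2 gene. Cells were activated with the peptide or with antibodies to CD3 and CD28, the labels leaving unsaid which applied to these libraries, and all were grown in IL-2 at 10 ng/ml over 4 days. The 4 groups of 3 libraries were vehicle (culture media), genipin, a plant compound known as an inhibitor of the mitochondrial carrier Ucp2, N-acetylcysteine (NAC), a thiol antioxidant, and genipin+NAC. Doses were not given in the labels. The labels also do not say whether replicates came from separate mice or cultures, so the spread behind the p-values is that between libraries and may be purely technical.

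All 9 receptors couple mainly to inhibitory G proteins, whose activation leads to integrin adhesion and directed movement. Ccr1, Ccr2 and Cxcr3 and their ligands bring activated T cells and monocytes to sites of inflammation, and Cx3cr1 marks cytotoxic effector cells that circulate in blood. Cxcr6 binds the membrane-bound chemokine Cxcl16 and is a receptor of resident T cells and tumour-infiltrating T cells. Cxcr4 retains cells in bone marrow and other niches rich in Cxcl12, Ccr4 and Ccr8 guide cells to skin and other barrier tissue, and Cxcr5 guides lymphocytes to B cell follicles.

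Library totals ran from 20838894 to 31098648 expected counts, so that 3 counts, the limit that a count of 0 allows, corresponded to 0.0965 to 0.144 CPM (counts scaled to the library total). The 12 CD8 T cell marker genes examined all passed the filter, with a summed level of 4456 to 5540 TPM (transcript abundance adjusted for transcript length) in every library. In the genipin+NAC group replicate 1 stood apart in a chi-square test of counts over genes, with 6.95 per degree of freedom when set beside replicate 2 and 8.07 beside replicate 3. Replicates 2 and 3 gave 2.08, and pairs in the other groups gave 2.18 to 2.92. Results from this group are also given without that library where it matters. In bulk RNA, fewer cells carrying a receptor and less receptor RNA per cell cannot be told apart.

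Of the 9 genes 7 lie on chromosome 9 (mm10). Promoter sequence was matched by symbol for 8 of the 9 in RefSeq (GRCm38.p6). The stretches printed here belong to 2 receptors that fell with NAC and whose genipin response was raised the most by NAC (Ccr1 and Cxcr6), and to 2 that genipin moved in opposite directions (Cxcr3 up, Cxcr4 down). Each runs 5′ to 3′ on the gene's own strand up to the last base outside annotated (GENCODE) exons. Capitals mark matches to short motifs of transcription factor families that act in T cells: ACCACA for RUNX, TCACAC for the T-box core and CACCC for KLF.
Ccr1 (chr9:123968693-123968942, minus strand): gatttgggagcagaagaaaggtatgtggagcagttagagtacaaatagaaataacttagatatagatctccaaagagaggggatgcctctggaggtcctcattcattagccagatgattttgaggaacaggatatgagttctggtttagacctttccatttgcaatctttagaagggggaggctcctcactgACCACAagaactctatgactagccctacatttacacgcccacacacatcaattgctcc
Cxcr6 (chr9:123806227-123806474, plus strand): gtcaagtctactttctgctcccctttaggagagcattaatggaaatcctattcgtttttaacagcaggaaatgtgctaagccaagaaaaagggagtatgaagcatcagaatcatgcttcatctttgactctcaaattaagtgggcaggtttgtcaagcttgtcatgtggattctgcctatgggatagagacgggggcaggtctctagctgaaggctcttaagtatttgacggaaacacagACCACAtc
Cxcr3 (chrX:101734270-101734397, minus strand): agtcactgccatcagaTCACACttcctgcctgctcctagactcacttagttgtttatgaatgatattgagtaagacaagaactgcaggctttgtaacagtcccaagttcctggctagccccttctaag
Cxcr4 (chr1:128592300-128592549, minus strand): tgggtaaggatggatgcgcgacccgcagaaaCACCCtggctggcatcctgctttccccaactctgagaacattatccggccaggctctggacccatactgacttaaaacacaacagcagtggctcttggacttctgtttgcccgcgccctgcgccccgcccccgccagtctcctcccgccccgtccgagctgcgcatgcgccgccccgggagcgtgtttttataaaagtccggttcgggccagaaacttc

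The search covered both strands of the 250 bases before each of 32851 RefSeq transcript starts, and also included TGAGTCA for AP-1 and ACGTG for the HIF core. Positions count back from the RefSeq start, which for Cxcr6 lies 2 bases past the printed stretch, because the GENCODE transcript begins earlier, and for Cxcr3 lies further on, past exonic bases that were not printed. ACCACA lay 58 to 53 bases before the start of Ccr1 and 10 to 5 bases before that of Cxcr6, and 14.0% of all promoters held it. It also occurred in unprinted bases of Cxcr3 (110 to 105) and Cx3cr1 (54 to 49). TCACAC lay 234 to 229 bases before the Cxcr3 start and was held by 12.3% of promoters. CACCC, at 219 to 215 bases before the Cxcr4 start, is common and was held by 52.0%. CACCC or its complement also occurred in Ccr4, Ccr8 and Cx3cr1, and Ccr2 had no match to any motif. TGAGTCA, found in 4.46% of promoters, occurred among the matched receptors in the Ccr4 promoter, 143 to 137 bases before its start. ACGTG was held by 16.6% of promoters and by none of the 8. These matches are descriptions of the letters and do not show binding.

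Genipin alone moved the abundant inflammatory receptors in different directions. Both compounds together came with a low summed level of that group and a high one of the tissue-homing group, most of it Cxcr6. The 4 inflammatory receptors summed to 94.2 ± 1.03 TPM with vehicle (mean ± SD, n = 3), 162 ± 3.65 with genipin, 37.6 ± 0.443 with genipin+NAC and 26.3 ± 1.03 with NAC. The 5 tissue-homing receptors summed to 185 ± 4.00, 227 ± 7.85, 257 ± 20.1 and 70.9 ± 0.826 TPM in the same order. Cxcr6 supplied 81.3%, 94.1%, 90.7% and 45.9% of that sum in turn. With genipin+NAC against vehicle, Cxcr4 and Ccr4 fell (log2 changes of -0.52 and -1.11), whereas the low-count Ccr8 and Cxcr5 rose (1.48 and 1.56). The ratio of the inflammatory to the tissue-homing sum was highest with genipin, at 0.715 ± 0.0141, followed by vehicle at 0.510 ± 0.0163 and NAC at 0.371 ± 0.0173, and was lowest with genipin+NAC, at 0.147 ± 0.0108. The ranges of this ratio did not overlap between any groups. Outside the NAC group a pair of genes made up most of the TPM of the 9 receptors. Ccr2 and Cxcr6 together gave 77.8% with vehicle, 87.5% with genipin, 84.5% with genipin+NAC and 41.9% with NAC. In the NAC group Cxcr3 was the largest part of the inflammatory sum (mean of 15.55 TPM, against 8.17 for Ccr2). With genipin+NAC Cxcr3 (14.85) was close to Ccr2 (15.86).

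**Figure D1:**
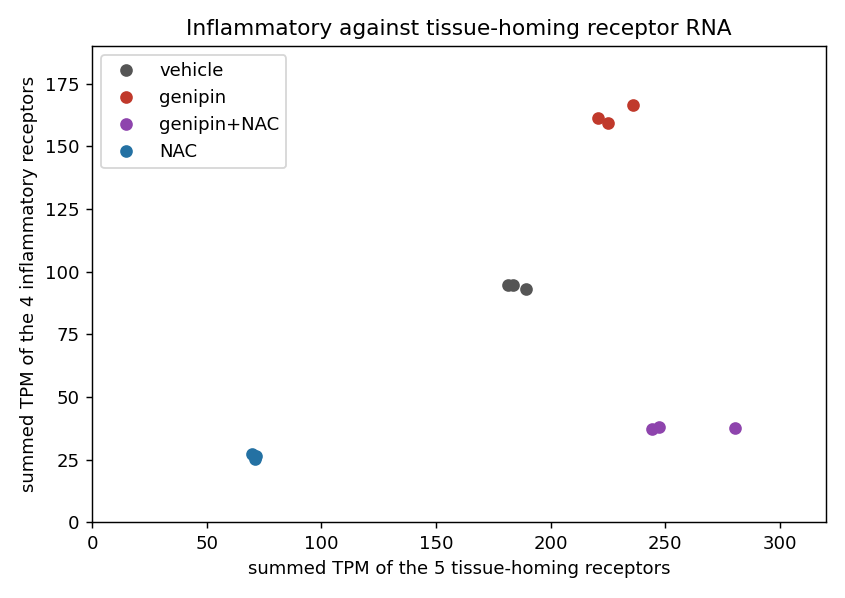
Summed TPM of the 4 inflammatory receptors (vertical axis) against that of the 5 tissue-homing receptors (horizontal axis), with 1 point per library. The genipin libraries lie highest, the NAC libraries lie lowest on both axes, and the genipin+NAC libraries combine an inflammatory sum of 37.2 to 38.0 with a tissue-homing sum of 244 to 280.4.

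**Figure D2:**
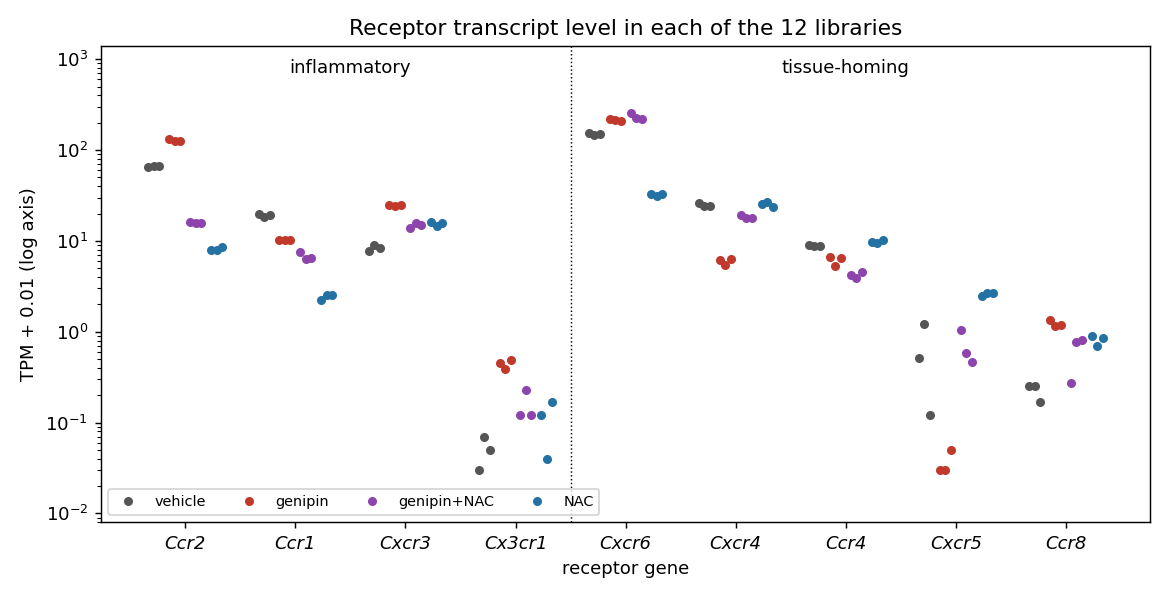
TPM of each receptor in each of the 12 libraries, plotted as TPM plus 0.01 on a log axis, with the inflammatory receptors left of the dotted line and the tissue-homing receptors right of it. The libraries of a group lie close together for the abundant receptors and spread more for Cx3cr1, Cxcr5 and Ccr8, which have few counts.

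Genipin against vehicle asks what genipin changed without NAC. Among the 9 receptors 5 rose (Ccr2, Cxcr3, Cx3cr1, Ccr8 and Cxcr6) and 4 fell (Ccr1, Ccr4, Cxcr4 and Cxcr5) at an adjusted p under 0.05 in edgeR's quasi-likelihood test, where 29.9% of all genes tested rose and 31.0% fell (61.0% in either direction). By group, 3 inflammatory receptors rose and 1 fell, and 2 tissue-homing receptors rose and 3 fell. The median log2 fold change was 0.38 over the 9 receptors and -0.01 over all genes. These counts and the median include Cx3cr1 and Ccr8, which passed the filter only through groups in which they were highest, genipin among them. Such entry favours a rise with genipin, so their calls carry less weight. Of the 6 receptors with a mean of at least 5 CPM, 3 rose and 3 fell.

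NAC against vehicle asks the same of the antioxidant. Here 3 receptors rose (Cxcr3, Ccr8 and Cxcr5), 4 fell (Ccr1, Ccr2, Cxcr4 and Cxcr6) and 2 did not pass the test (Cx3cr1 and Ccr4), where 29.6% of all genes rose and 30.0% fell (59.7% together). The median was -0.04 over the 9 and -0.01 over all genes. That of the 9 includes the low-count genes Cx3cr1 (1.24), Ccr8 (1.71) and Cxcr5 (2.88). These passed the filter only through the groups in which they were highest. Of the 6 receptors with a mean of at least 5 CPM, 1 rose (Cxcr3, 0.70) and 4 fell. With no normalization factors the split over all genes moved from 4041 higher and 4093 lower to 5615 higher and 2700 lower, as the median of all genes moved by 0.12 on the log2 scale. The falls of Ccr1, Ccr2 and Cxcr6 are many times larger than this shift. That of Cxcr4 (-0.24) is not, and without normalization factors it was -0.12 and did not pass (edgeR adjusted p = 0.130).

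With genipin+NAC against vehicle, 5 receptors rose (Cxcr3, Cx3cr1, Ccr8, Cxcr5 and Cxcr6) and 4 fell (Ccr1, Ccr2, Ccr4 and Cxcr4), against 28.5% and 28.9% of all genes (57.4% together), and the median over the 9 was 0.57 against 0.00 over all genes. Of the 6 receptors with a mean of at least 5 CPM, 2 rose (Cxcr3 and Cxcr6) and 4 fell. The other risers (Cx3cr1, Ccr8 and Cxcr5) passed the filter only through groups in which they were highest, and vehicle had few counts. They also enter the counts and medians of the comparisons that follow. The 3 comparisons with vehicle share its libraries. Against genipin alone, genipin+NAC had 3 receptors higher (Cxcr4, Cxcr5 and Cxcr6) and 6 lower, including all 4 inflammatory receptors, where 35.0% of all genes were higher and 34.3% lower (69.3% together). Medians for this comparison were -0.53 over the 9 and 0.01 over all genes. Against NAC alone it had 3 receptors higher (Ccr1, Ccr2 and Cxcr6), 3 lower (Ccr4, Cxcr4 and Cxcr5) and 3 that did not pass the test (Cxcr3, Cx3cr1 and Ccr8). In that comparison 26.6% of all genes were higher and 26.5% lower (53.1% together), and the medians were 0.07 over the 9 and 0.01 over all genes. Without normalization factors the split of all genes against NAC went from 3632 higher and 3607 lower to 2650 and 4733.

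**Figure D3:**
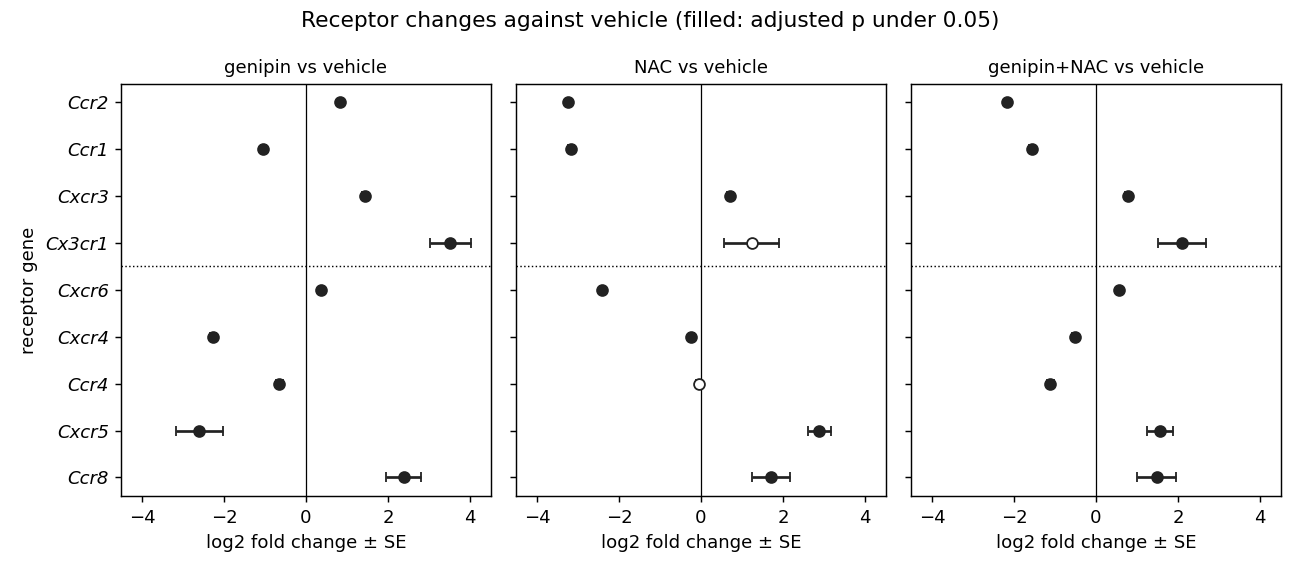
Log2 fold change ± SE of each receptor against vehicle for genipin, NAC and genipin+NAC, with filled points where the adjusted p was under 0.05 and open points elsewhere. Ccr2 is above 0 with genipin (0.83) and far below it with NAC (-3.23) and genipin+NAC (-2.16), and Cxcr6 is below 0 with NAC alone (-2.41).

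Ccr2 is the receptor for Ccl2 and related monocyte chemoattractants (ENSMUSG00000049103.14, chromosome 9, 124101950 to 124113557, plus strand). With vehicle it was measured at 65.8, 67.3 and 67.2 TPM, compared with 131, 125 and 126 with genipin, 16.1, 15.9 and 15.6 with genipin+NAC, and 7.95, 8.02 and 8.55 with NAC. The 4 groups did not overlap, with genipin highest and NAC lowest. The log2 fold change ± SE against vehicle was 0.83 ± 0.03 with genipin (adjusted p = 1.58e-15, edgeR), -3.23 ± 0.04 with NAC (3.56e-24) and -2.16 ± 0.03 with genipin+NAC (2.77e-21). Adding NAC to genipin lowered Ccr2 by a log2 change of -2.99 ± 0.03 (4.73e-24), and its level with both compounds was above that of NAC alone only. Genipin raised Ccr2 both without NAC (0.83) and with it (1.08 ± 0.04, adjusted p = 7.09e-15). Ccr2 supplied 70.9% of the inflammatory TPM with vehicle, 78.3% with genipin, 42.2% with genipin+NAC and 31.1% with NAC.

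Ccr1 binds inflammatory ligands such as Ccl3 and Ccl5 (ENSMUSG00000025804.5, chromosome 9, 123962124 to 123968692, minus strand). It was measured at 19.6, 18.4 and 19.3 TPM with vehicle, 10.2, 10.3 and 10.1 with genipin, 7.47, 6.27 and 6.54 with genipin+NAC, and 2.25, 2.53 and 2.54 with NAC. All 3 treated groups lay below vehicle and none overlapped. Ccr1 fell by 1.04 ± 0.06 on the log2 scale with genipin (adjusted p = 2.72e-12, edgeR), by 3.16 ± 0.07 with NAC (6.37e-19) and by 1.56 ± 0.06 with both (8.81e-15). Relative to NAC alone, genipin+NAC was higher by 1.60 ± 0.08 (5.27e-13), the opposite direction to that of genipin without NAC. In these libraries Ccr1 and Ccr2, neighbours on the chromosome, therefore moved in opposite directions with genipin and in the same direction with NAC.

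Cxcr3, the receptor for the interferon-induced chemokines Cxcl9 and Cxcl10, is on chromosome X (ENSMUSG00000050232.6, 101731535 to 101734269, minus strand). The vehicle libraries had 7.64, 8.92 and 8.31 TPM, and the others had 24.7, 24.1 and 25.01 with genipin, 13.9, 15.7 and 14.9 with genipin+NAC, and 16.3, 14.5 and 15.8 with NAC. Vehicle was lowest and genipin highest, and the groups with NAC overlapped each other between them. Cxcr3 rose with genipin (1.44 ± 0.07, adjusted p = 2.36e-13, edgeR), with NAC (0.70 ± 0.07, 5.35e-08) and with both (0.78 ± 0.07, 1.12e-08). Genipin+NAC did not differ beyond the spread from NAC alone (0.07 ± 0.07, adjusted p = 0.389). It was the only one of the 6 more abundant receptors to rise in all 3 comparisons with vehicle.

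Cx3cr1, the fractalkine receptor (ENSMUSG00000052336.7, chromosome 9, 119901616 to 120069879, minus strand), was close to the limit of detection. It had 1, 4 and 3 counts with vehicle, 33, 25 and 38 with genipin, 8, 17 and 11 with genipin+NAC, and 7, 2 and 10 with NAC. The genipin libraries stood above all others, and NAC overlapped both vehicle and genipin+NAC in CPM. The summed counts gave a genipin to vehicle ratio of 11.99 in CPM, with an exact 95% interval for counting error of 5.85 to 28.6. The edgeR fit gave 3.52 ± 0.51 with genipin (adjusted p = 3.61e-06), 2.10 ± 0.59 with both (0.00458) and 1.24 ± 0.67 with NAC (0.118). Without replicate 2 of NAC the last value was 1.69 and passed (0.0279). Cx3cr1 passed the filter only through its high genipin libraries. That entry favours a rise with genipin, so its p-value and interval for genipin against vehicle carry less weight. The long annotated locus overlaps 9 other genes, among them Csrnp1 on the same strand with up to 3244 counts in a library, Gorasp1 on the same strand with up to 265 and Wdr48 on the other strand with up to 2275. The strand setting used in counting was not given in the sources used here.

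Markers of other cell types that carry inflammatory receptors were examined beside them. Of 16 monocyte and macrophage genes, 4 (Fcgr1, C1qb, C1qc and Chil3) had 0 counts in all 12 libraries, 12 had no more than 15 counts in any library, and Csf1r and Adgre1 reached 1 and 3 counts at most. The summed TPM of the list was 1225 to 1268 with vehicle, 1333 to 1391 with genipin, 839 to 914 with genipin+NAC and 538 to 560 with NAC, nearly all of it Ly6c2, a gene that CD8 T cells also express. The 4 tested genes went different ways. Ly6c2 gave 0.02 with genipin (adjusted p = 0.585, edgeR) and fell with NAC (-1.54), Cd14 rose with genipin (0.97) and fell with NAC (-1.47), as Ccr2 did, but rose with genipin+NAC (0.49), and Itgam (-0.85 and 0.50) and Cd68 (-1.65 and 0.66) fell with genipin and rose with NAC.

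Of 12 neutrophil and mast cell genes 9 had no more than 15 counts in any library, with Csf3r, Elane and S100a8 at 0 throughout, and the list summed to 21.2 to 23.7 TPM with vehicle, 49.9 to 54.5 with genipin, 77.1 to 83.3 with genipin+NAC and 19.5 to 20.8 with NAC. All 3 tested genes rose with genipin, where 29.9% of all genes tested rose. Mcpt8, a granule protease gene, changed in the same directions as Ccr2 in each comparison with vehicle (1.21 with genipin, -4.12 with NAC and -2.37 with both), whereas Cpa3 (0.86, -0.88 and 1.10) and Kit (1.15, 1.83 and 3.95) did not. Of 8 dendritic cell genes 4 had no more than 15 counts, and the list summed to 135 to 146 TPM, 39.8 to 47.2, 56.2 to 64.3 and 119 to 124 in the same order, most of it Batf3. Of 5 gamma delta T cell genes 1 had no more than 15 counts, and the sums were 55.1 to 59.5, 61.7 to 65.7, 41.9 to 45.5 and 65.2 to 72.3 TPM.

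The 7 natural killer cell genes, which T cells share in part, summed to 116 ± 1.48 TPM with vehicle, 274 ± 12.2 with genipin, 79.4 ± 1.41 with genipin+NAC and 45.7 ± 2.21 with NAC, and 2 of them had no more than 15 counts. Fcer1g made up most of that sum, at 84.2, 217, 37.5 and 17.9 TPM, the same order of groups as Ccr2. The 5 tested genes all rose with genipin, and 4 fell with NAC, where 29.9% of all genes rose with genipin and 30.0% fell with NAC. Among them Ncr1 passed the filter only through genipin, which favours its rise, and its fall with NAC rests on few counts. With genipin+NAC against vehicle Fcer1g fell (-1.24), whereas Klrb1c (0.94) and Eomes (0.35) rose. Ncr1, a defining receptor of these cells, had 1 to 2 counts with vehicle, 36 to 64 with genipin, 3 to 4 with genipin+NAC and 0 in every NAC library. The part of such cells in the receptor levels was not tested.

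Cxcr6 (ENSMUSG00000048521.8, chromosome 9, 123806475 to 123811760, plus strand) was the most abundant of the 9 receptors in TPM in every library. The values were 153, 147 and 151 TPM with vehicle, 222, 213 and 207 with genipin, 256, 224 and 220 with genipin+NAC, and 33.2, 31.6 and 32.7 with NAC. NAC alone stood far below the others, and replicate 1 of genipin+NAC was the highest library. Cxcr6 rose slightly with genipin (0.38 ± 0.04, adjusted p = 4.14e-08, edgeR) and with both compounds (0.57 ± 0.04, 6.86e-11), and fell with NAC (-2.41 ± 0.05, 2.47e-20). Genipin+NAC exceeded NAC by 2.98 ± 0.05 (8.87e-22) and genipin by 0.19 ± 0.04 (0.000149). Without replicate 1 of genipin+NAC these were 2.92 and 0.14, still past the test. The gene overlaps Fyco1 on the other strand, which had at most 757 counts in a library.

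Cxcr4, the Cxcl12 receptor (ENSMUSG00000045382.6, chromosome 1, 128588199 to 128592293, minus strand), was measured at 26.2, 24.5 and 24.0 TPM with vehicle, 6.22, 5.39 and 6.30 with genipin, 19.4, 17.7 and 17.9 with genipin+NAC, and 25.3, 26.7 and 23.4 with NAC. The genipin libraries were low, and every other library had at least 17.7. Cxcr4 fell with genipin (-2.26 ± 0.08, adjusted p = 8.16e-16, edgeR) and less with both compounds (-0.52 ± 0.07, 1.0e-06), and adding NAC to genipin raised it by 1.75 ± 0.08 (4.93e-14). The fall with NAC alone was -0.24 ± 0.07 (0.00386) on counts, while the TPM ranges of NAC and vehicle overlapped. It did not pass with offsets for effective transcript length (-0.18, adjusted p = 0.0589) or without normalization factors (-0.12, 0.130).

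Ccr4 binds Ccl17 and Ccl22 (ENSMUSG00000047898.7, chromosome 9, 114490316 to 114504916, minus strand). The libraries held 8.93, 8.82 and 8.70 TPM with vehicle, 6.63, 5.34 and 6.46 with genipin, 4.25, 3.93 and 4.52 with genipin+NAC, and 9.61, 9.53 and 10.3 with NAC. The genipin+NAC libraries were lowest, and in CPM the NAC and vehicle libraries overlapped. Ccr4 fell with genipin (-0.65 ± 0.08, adjusted p = 1.98e-07, edgeR) and further with both (-1.11 ± 0.08, 1.09e-10). NAC alone gave -0.04 ± 0.07 (adjusted p = 0.625), and 0.076 (0.376) without normalization factors. Genipin+NAC was below genipin (-0.46 ± 0.08, 4.25e-05) and below NAC (-1.07 ± 0.08, 2.59e-10).

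Cxcr5 (ENSMUSG00000047880.15, chromosome 9, 44511787 to 44561877, minus strand) and Ccr8, the Ccl1 receptor (ENSMUSG00000042262.5, chromosome 9, 120092114 to 120094906, plus strand), had few counts. Cxcr5 had 10, 9 and 7 counts with vehicle, 1, 1 and 2 with genipin, 18, 29 and 32 with genipin+NAC, and 55, 69 and 68 with NAC. No groups overlapped in CPM: genipin was lowest and NAC highest. Cxcr5 fell with genipin, at a ratio of 0.154 to vehicle (exact 95% interval 0.0390 to 0.443 for counting error, edgeR adjusted p = 0.000496). It rose with NAC, at a ratio of 7.50 (4.96 to 11.8, adjusted p = 1.72e-08), and was 19.4 times higher with genipin+NAC than with genipin (7.28 to 72.9, adjusted p = 6.31e-08). Cxcr5 passed the filter only through NAC and genipin+NAC, which favours higher values in those groups, so these rises carry less weight. Its vehicle TPM of 0.50, 1.20 and 0.11 varied far more than the counts, and with effective-length offsets the rise with genipin+NAC against vehicle did not pass (0.65 against 1.56, adjusted p = 0.393).

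Ccr8 had 5, 5 and 4 counts with vehicle, 28, 21 and 26 with genipin, 5, 15 and 21 with genipin+NAC, and 15, 14 and 17 with NAC. Vehicle was lowest and genipin highest, and replicate 1 of genipin+NAC lay below the other libraries of its group. Ccr8 rose with genipin (ratio 5.35, 3.00 to 10.3, edgeR adjusted p = 5.14e-05) and with NAC (ratio 3.34, 1.80 to 6.57, adjusted p = 0.00287). Ccr8 passed the filter only through those groups, which favours high values there, so its comparisons with them carry less weight. Genipin+NAC was below genipin (-0.91 ± 0.35, adjusted p = 0.0259), but this did not pass without replicate 1 of genipin+NAC (-0.57, 0.162), without replicate 1 of genipin (-0.84, 0.0787) or in DESeq2 (-0.93, 0.0523). The rise of genipin+NAC over vehicle was 1.48 ± 0.47 (adjusted p = 0.0101) and did not pass without replicate 3 of genipin+NAC (1.19, 0.0724).

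Markers of the cells in which these receptors are abundant were also examined. Of 11 B cell genes 7 had no more than 15 counts in any library, and the defining genes Ms4a1 and Pax5 reached at most 2 counts each, in NAC libraries, and were at 0 in all others. The summed TPM of the list was 32.9 to 33.5 with vehicle, 50.1 to 54.0 with genipin, 127 to 129 with genipin+NAC and 171 to 181 with NAC, nearly all of it Ighm. Ighm rose with genipin (0.60), where Cxcr5 fell, and with NAC (2.26). Cd79b moved as Cxcr5 did, down with genipin (-0.99) and up with NAC (1.88), Ebf1 fell with NAC (-1.03), and Ighd rose with NAC (3.39) but did not pass with genipin (0.24, adjusted p = 0.835, edgeR). Of 8 CD4 and regulatory T cell genes 3 had no more than 15 counts, Foxp3 among them with at most 13, and the list summed to 23.1 to 26.4, 25.2 to 27.4, 29.5 to 33.6 and 46.3 to 51.6 TPM in the same order. Of its 4 tested genes Cd4 fell with genipin (-1.85) and rose with NAC (2.02), and Ikzf2 fell with both compounds given singly (-0.34 and -0.16). Zbtb7b and Il13 rose with NAC (0.64 and 1.27) and did not pass with genipin (0.00 and -0.80). Both sums were highest with NAC, as Cxcr5 was, and the part of such cells in the receptor levels was not tested.

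The interaction asks whether the genipin response differed with NAC, as the log2 change from NAC to genipin+NAC minus that from vehicle to genipin. It was positive for 4 receptors (Ccr1, Ccr2, Cxcr4 and Cxcr6), negative for 4 (Cxcr3, Cx3cr1, Ccr4 and Ccr8) and did not pass for Cxcr5 (1.27 ± 0.64, adjusted p = 0.104), where 27.4% of all genes were positive and 24.0% negative (51.4% together). Medians were 0.25 over the 9 and 0.03 over all genes. Without normalization factors the split of all genes moved from 3733 positive and 3275 negative to 2618 and 4806, with the median lower by 0.14, and the Ccr2 interaction no longer passed (0.10, adjusted p = 0.119). The strongest positive values were those of Ccr1 (2.64 ± 0.10, adjusted p = 3.70e-15, edgeR), Cxcr6 (2.60 ± 0.06, 9.26e-19) and Cxcr4 (1.98 ± 0.11, 9.99e-13). Genipin lowered Ccr1 without NAC (-1.04) and raised it with NAC (1.60), lifted Cxcr6 by 0.38 without NAC and 2.98 with it, and changed Cxcr4 by -2.26 without NAC and by -0.28 with it. For Cxcr3 (-1.36 ± 0.10, 2.08e-10) a rise of 1.44 without NAC became 0.07 with it. For Ccr4 (-0.42 ± 0.11, 0.00293) the fall grew from -0.65 to -1.07, and the Ccr2 interaction was small (0.25 ± 0.05, 0.000471). The low-count genes Cx3cr1 (-2.65 ± 0.77, 0.00639) and Ccr8 (-2.62 ± 0.58, 0.000636) kept these signs without replicate 1 of genipin+NAC, at -2.49 and -2.28. Leaving out that library does not touch how they passed the filter: Cx3cr1 through genipin, Ccr8 through genipin and NAC. Entry through a high genipin group favours a large genipin rise without NAC, so these negative values carry less weight. A filter at a mean of 5 CPM left 2 negative interactions.

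**Figure D4:**
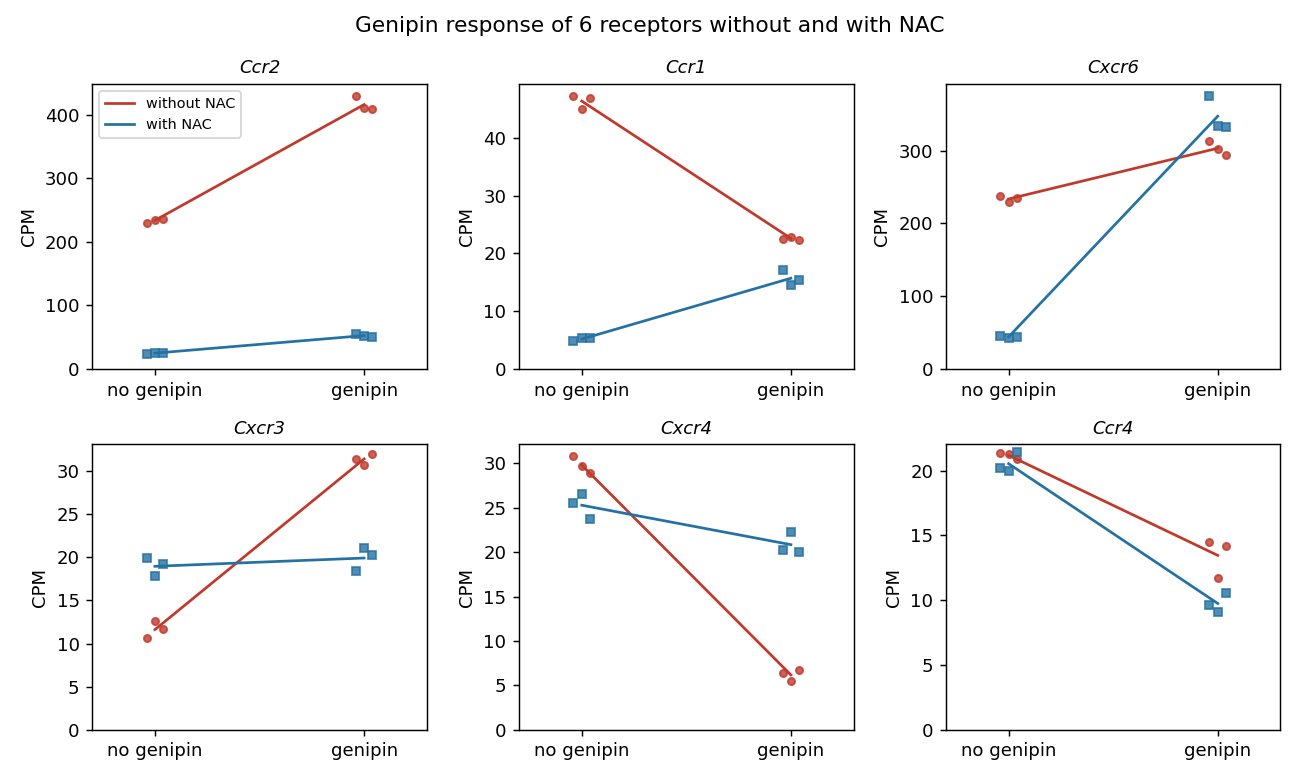
CPM of the 6 more abundant receptors without genipin (left) and with it (right), as circles without NAC and squares with NAC, with lines joining group means of 3 libraries. For Ccr2 both lines rise (log2 changes of 0.83 and 1.08), for Ccr1 the line without NAC falls (-1.04) and that with NAC rises (1.60), and for Cxcr3 the line with NAC is nearly flat (0.07).

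Ccr1, Ccr2 and Cxcr6 lie within 500 kb on chromosome 9, in a cluster with other chemokine receptor genes, so the neighbouring genes were examined. With NAC the 3 receptors fell together: Ccr1 (-3.16), Ccr2 (-3.23) and Cxcr6 (-2.41). Fyco1, between Cxcr6 and Ccr1, rose with NAC (0.86), and Lztfl1 and Gm10052 at one edge did not pass (0.07 and -0.08). Towards the other edge Ppp2r3d also fell with NAC (-0.56, edgeR adjusted p = 0.000344), and 2010315B03Rik rose (0.38). With genipin the 3 receptors were mixed: Ccr2 (0.83) and Cxcr6 (0.38) rose while Ccr1 fell (-1.04). Of the 6709 distinct stretches of 100 bases in annotated Ccr2 transcripts, 53 (0.790%) also occurred in transcripts of another gene. Cxcr5 shared 11 of 3219 (0.342%) with the overlapping gene Bcl9l, and the other 7 receptors shared 0.

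**Figure D5:**
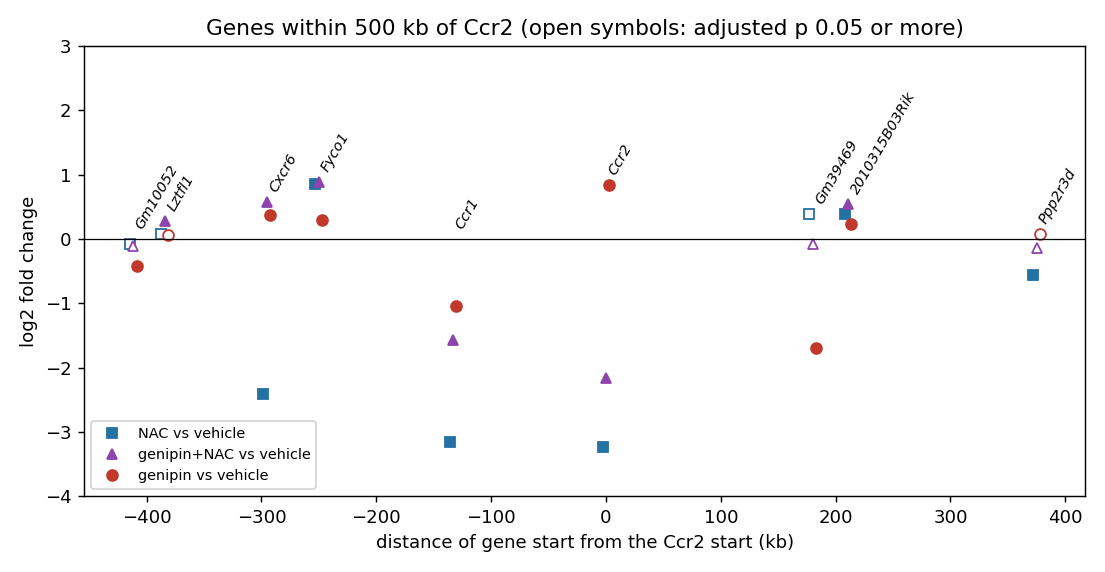
Log2 fold change against vehicle of 9 genes within 500 kb of the Ccr2 start, by distance of each gene start from that of Ccr2 in kb, with open symbols where the adjusted p was 0.05 or more. Filled squares (NAC) lie below 0 at Cxcr6, Ccr1, Ccr2 and Ppp2r3d and above 0 at Fyco1 and 2010315B03Rik. Triangles (genipin+NAC) are at 0.57 for Cxcr6, -1.56 for Ccr1 and -2.16 for Ccr2.

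For the receptors with a mean of at least 5 CPM, the genes whose levels ran most alike over the 12 libraries were found among 9391 genes by Pearson's r of log2 CPM. The libraries fall into 4 groups, so these values describe the group pattern and depth is shared by both genes. For Ccr2 they included Gzma (granzyme A, r = 0.9998) and Zfp207 (0.994), and Gzma had 965 CPM with vehicle, 1649.7 with genipin, 243 with genipin+NAC and 123 with NAC. For Ccr1 they were Gzmb (granzyme B, 0.992), Ifitm1 (0.992) and Tgfbr2 (0.990). For Cxcr6 they were Havcr2 (the inhibitory receptor Tim-3, 0.993), Snx25 (0.992) and Tgtp2 (0.989), and Havcr2 had 170, 225, 214 and 70.5 CPM in the same order of groups. Cxcr3 ran most like Tab2 (0.979), Numa1 (0.978) and Prrc2b (0.977), Cxcr4 like Map3k14 (0.995), Endou (0.995) and Glipr2 (0.994), and Ccr4 like Utp18 (0.992), Ipo5 (0.974) and Wdr74 (0.971). Among the receptors themselves, r was 0.829 between Ccr1 and Ccr2, 0.772 between Ccr1 and Cxcr6, and -0.879 between Cxcr3 and Cxcr4.

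Other genes of the pathway were described from lists, whose counts are to be read beside the 29.9% of all genes that rose and 31.0% that fell with genipin, and the 29.6% and 30.0% with NAC. Of 14 further chemokine receptors 3 were tested. Ccr7, the receptor for lymph node entry, was at 67.6 TPM with vehicle, 12.65 with genipin, 65.1 with genipin+NAC and 99.3 with NAC, and genipin lowered it (-2.56, edgeR adjusted p = 2.25e-19) while NAC raised it (0.35, 5.69e-07). Ccr2 moved the other way in both comparisons. Ccrl2, a chemokine receptor-like gene, fell with genipin (-0.62) and rose with NAC (0.49). Of 11 other guidance receptors 7 were tested: genipin raised 1 and lowered 3, and NAC raised 0 and lowered 6. The sphingosine phosphate receptor S1pr1, which directs egress from lymphoid tissue, fell with genipin (-2.37, 2.06e-18) and with NAC (-0.54, 7.35e-09), and the oxysterol receptor Gpr183 fell by 1.44 and 0.71.

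Of 21 listed ligand genes 9 were tested. The list was meant for ligands of the 9 receptors but also holds Xcl1, whose receptor Xcr1 is not among them. With genipin 5 rose and 2 fell, and with NAC 1 rose and 7 fell, with medians of 1.29 and -2.47 (61.0% of all genes were called with genipin and 59.7% with NAC). These counts and medians include Xcl1, which was the gene that rose with NAC (0.81) and also rose with genipin (2.14). Ccl5, a ligand of Ccr1, was at 442 TPM with vehicle, 1182 with genipin, 424 with genipin+NAC and 84.2 with NAC. It rose with genipin (1.29, edgeR adjusted p = 4.28e-18), fell with NAC (-2.61, 1.36e-21) and was slightly lower with both (-0.13, 0.003). Ccl3 and Ccl4 rose with genipin (1.57 and 1.32) and fell with NAC (-1.44 and -2.47). The Cxcr3 ligands Cxcl9 and Cxcl11 and the ligands Cxcl12 and Cxcl13 of Cxcr4 and Cxcr5 had 0 counts in every library, each within the limit of 3 counts given above.

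Receptor signalling genes came next. Of 16 tested G protein and coupling genes, genipin raised 2 and lowered 10, and NAC raised 4 and lowered 7, with medians of -0.18 and -0.06. Among all genes the shares were 29.9% up and 31.0% down with genipin, and 29.6% and 30.0% with NAC. The G protein subunit Gnb5 fell with genipin (-1.48, edgeR adjusted p = 2.92e-12). Of 17 tested desensitisation genes (arrestins, receptor kinases and RGS proteins), genipin raised 6 and lowered 6, and NAC raised 4 and lowered 10. Arrb1, the gene of beta-arrestin 1, fell with genipin (-2.20, 8.89e-20) and rose with both compounds (1.29, 2.57e-17), an interaction of 3.98 (1.06e-21). Rgs16, which shortens G protein signalling, fell with NAC (-1.17, 1.58e-15), and Rgs1 fell with genipin (-0.86, 5.49e-13). Of 35 downstream migration genes, all tested, genipin raised 16 and lowered 12, and NAC raised 8 and lowered 20, with medians of 0.00 and -0.14, where 61.0% and 59.7% of all genes were called. Dock8, an exchange factor for Cdc42, rose with genipin (0.58) and fell with NAC (-0.53), and Dock2, an exchange factor for Rac, fell with NAC (-0.66).

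Of 28 tested transcription factors known to act on effector fate or on these receptors, genipin raised 9 and lowered 12, and NAC raised 14 and lowered 10, with medians of -0.12 and 0.11, against 29.9% and 31.0% of all genes with genipin and 29.6% and 30.0% with NAC. Tcf7, a factor of naive and memory-like T cells, rose with NAC (3.73, edgeR adjusted p = 2.12e-19) and fell with genipin (-1.13, 9.38e-08). Id2, which supports effector cells, fell with NAC (-1.40, 1.22e-19). Hif1a, the oxygen-regulated factor, fell with genipin (-1.03, 4.57e-16) and rose with NAC (0.58, 4.69e-12). Irf4 and Myb fell with genipin (-1.04 and -1.25) and with NAC (-0.72 and -0.93).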

How the data were processed

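Per the labels, a stranded kit was applied to total RNA depleted of ribosomal RNA, and the submitters' processing notes name bcl2fastq, cutadapt 1.18, STAR 2.7.0f, RSEM 1.3.1 and mm10. The authors deposited for each library a gene table of expected counts, TPM and FPKM, per the file headers. FPKM values, as deposited by the authors, were not used, as they restate those counts. All 55450 IDs and symbols matched GENCODE mouse release M21, which gave coordinates.

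Groups came from the labels. Expected counts were rounded, filtered with filterByExpr of edgeR 4.0.16 (R 4.3.3) to 13636 genes and scaled by TMM (factors 0.961 to 1.05). All 12 libraries entered one quasi-likelihood model with 4 group means (8 residual and 12.6 prior degrees of freedom, common biological coefficient of variation 0.0393). The 6 contrasts were tested over all genes with Benjamini-Hochberg adjustment and called at an adjusted p under 0.05. SE values were derived from the F statistic and can be too small at few counts. Exact 95% intervals of count ratios cover counting error only, and so does the limit of 3 counts. Deposited TPM served for levels.

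The receptors and lists were chosen with earlier results of these data known. From each list the text could name the 3 genes with the smallest p with genipin and with NAC and the 2 with the most TPM. Receptors were all named, as were the 3 genes most alike in pattern. Single results of some of these genes are not reported here. Further markers of other cells, among them those near 0 counts, the ligand gene Xcl1 and tested genes near Ccr2 were named after their values were seen. The code was tested on simulated data. Replicate numbers were checked for pairing: 18 same-numbered pairs correlated between -0.0751 and 0.0437 after removal of group means, and no pairing was used. Alternatives were RLE factors, no factors, DESeq2 1.42.0, limma-voom (limma 3.58.1), other filters and thresholds, length offsets, a replicate block and each library left out. Figures used matplotlib 3.10.9.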

Additional observations from a re-analysis of the deposited data

Results flagged for a closer look

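For 8 of the 9 receptors the genipin response differed between cells with and without NAC, by the test of the difference itself (edgeR quasi-likelihood test of the interaction, log2 scale). The difference was 2.64 for Ccr1, 2.60 for Cxcr6, 1.98 for Cxcr4 and 0.25 for Ccr2, all in the direction of a higher response with NAC. It was -2.65 for Cx3cr1, -2.62 for Ccr8, -1.36 for Cxcr3 and -0.42 for Ccr4, in the direction of a lower one. Among all genes tested 51.4% differed in this way. Ccr1 is the receptor for which the genipin response turned from a fall (-1.04) to a rise (1.60). Cx3cr1 and Ccr8 had few counts and passed the filter on low counts only through the groups in which they were highest, so their calls carry less weight. Among the 6 receptors with a mean of at least 5 CPM, 4 of these differences were positive and 2 negative.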

How the results depend on the processing

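Of 1156 receptor values recomputed under other settings, 1142 kept their direction and their side of the threshold, among them all 54 with the replicate number as a block, with RLE size factors, with limma-voom or with no filter. Many of these values could hardly differ from the main ones. A library left out often belonged to a group outside the comparison, and the 0.01 threshold reused the main fold changes. The share kept is therefore not a measure of independent agreement. Direction turned for Ccr4 with NAC (0.076) and for Cxcr3 in genipin+NAC against NAC (-0.00481), both without normalization factors, and for Ccr8 in genipin+NAC against NAC without replicate 1 of genipin+NAC (-0.52 to 0.11 over the libraries left out in turn). None of these passed the test in either setting. Cx3cr1 with NAC passed only without replicate 2 of NAC (1.69, adjusted p = 0.0279, edgeR). At an adjusted p under 0.01, 2 Ccr8 calls were lost. A filter at a mean of 5 CPM left 6 receptors, of which 3 rose with genipin, 1 with NAC and 2 with genipin+NAC, and 2 had a negative interaction. With only the groups compared in the fit, 3 receptors rose with genipin+NAC against vehicle, since fewer passed the filter. Leaving out each library in turn gave 5 to 5 receptors higher and 4 to 4 lower with genipin, 3 to 4 and 4 to 4 with NAC, 4 to 5 and 4 to 4 with genipin+NAC, 3 to 3 and 5 to 6 against genipin, 3 to 3 and 3 to 3 against NAC, and 4 to 4 and 4 to 4 for the interaction. With the replicate block the genes called numbered 8246 with genipin, 8050 with NAC, 7768 with both, 9373 and 7152 for both against each compound, and 6958 for the interaction, and no receptor count changed. The few counts of Cx3cr1, Ccr8 and Cxcr5 limit their precision most.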
